A study of Mus musculus with 22 samples.

Results

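The interferon regulatory factors (IRFs) are transcription factors that share a DNA-binding domain, and 8 of their genes, *Irf1*, *Irf2*, *Irf3*, *Irf4*, *Irf5*, *Irf7*, *Irf8* and *Irf9*, were followed in brown adipose tissue (BAT) of CPEB2-WT and CPEB2-KO mice. They were taken by name from the 55487 genes listed, all 8 were found, and all 8 passed the filter on low counts in both cohorts. CPEB2 binds mRNAs and regulates their translation, and PRDM16 is a transcriptional regulator of brown fat identity; the study asked, among other things, how loss of CPEB2 and viral expression of PRDM16 alter the BAT transcriptome. mRNA of 22 mice was sequenced, with 1 library per mouse. All mice were C57BL/6, the knockout was global, and WT and KO mice came from crosses of heterozygotes. The labels give male mice throughout.

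In the untreated cohort, 5 mice per genotype were collected at 21 to 25 weeks. In the AAV cohort, either genotype received AAV-GFP or AAV-PRDM16, an adeno-associated virus, in the interscapular BAT at 16 weeks, and was collected 9 weeks later, at 25 weeks, with 3 mice in each of the 4 groups. Every AAV mouse was thus injected, and AAV-GFP was the control virus. The promoter of the virus is not given in the sources used here. The viral PRDM16 was a flag-tagged coding region, so that *Prdm16* counts mix viral and endogenous transcripts. Levels are CPM, reads of a gene scaled to the size of its library after TMM normalization; the 2 cohorts were scaled separately and were not tested against each other.

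IRFs bind variants of the sequence GAAA and carry signals of interferons and of microbial nucleic acids to the genome. IRF3 and IRF7 are activated by phosphorylation and switch on interferon genes, IRF9 is the DNA-binding subunit of the complex ISGF3 downstream of the type I interferon receptor, and IRF1 is induced by interferon gamma and activates antigen presentation genes, with IRF2 as its antagonist on shared sites. IRF5 and IRF8 are chiefly myeloid factors, and IRF8 is needed for some dendritic cells and shapes macrophages. IRF4 acts in lymphocytes, in macrophages and, unusually for the family, in adipocytes, where fasting induces it and where it works with PGC-1α on thermogenic genes. PRDM16 is known to compete with IRF1 on interferon response genes, so *Irf1* had particular weight here.

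The checks of the labels came first. *Cpeb2* was lower in KO than in WT libraries of the AAV cohort, at 4.33 to 5.55 against 10.5 to 14.0 CPM. Among untreated libraries, KO replicate 1 had 11.7 CPM, inside the WT range of 7.69 to 14.3 CPM, while the other KO libraries had 2.10 to 5.78 CPM. Y-linked transcripts were at most 1.17 CPM, with *Xist* at 104 CPM or more, in 6 of the 10 untreated libraries, WT replicates 3 and 5 and KO replicates 1, 3, 4 and 5, which goes against the label of male mice. WT replicate 4 carried both, with Y-linked transcripts at 116 CPM and *Xist* at 14 CPM, and KO replicate 2 had 77.1 and 1.65 CPM. In WT replicates 1 and 2 *Xist* was at 0.0876 and 0.031 CPM. The source of the *Xist* reads in WT replicate 4 was not tested. All 12 AAV libraries carried Y-linked transcripts. *Prdm16* ranged from 45.9 to 128 CPM in the AAV-PRDM16 libraries and from 23.9 to 40.2 CPM in the AAV-GFP libraries, with a log2 fold change of 1.49 and an edgeR adjusted p of 0.0528. Brown fat markers summed to between 3688 and 12780 CPM in every library, with *Ucp1* the highest of them on average, and skeletal muscle markers to between 7.96 and 6549 CPM in the untreated and between 0.374 and 90.8 CPM in the AAV libraries. Library totals ran from 55320927 to 162721202 counts, and a member's count in a library from 41 to 30882.

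In GRCm38 with GENCODE M21 names, *Irf1* lies at chr11:53770014-53778374, *Irf2* at chr8:46739732-46847458, *Irf3* at chr7:44997648-45002848 and *Irf4* at chr13:30749226-30766976. *Irf5* lies at chr6:29526625-29541871, *Irf7* at chr7:141262706-141266481, *Irf8* at chr8:120736358-120756694 and *Irf9* at chr14:55603571-55610030. All are protein-coding, *Irf7* is on the minus strand and the other 7 on the plus strand, and counts were taken per gene, so transcripts of a gene were not told apart.

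The promoters of *Irf1*, *Irf8*, *Irf5* and *Irf2* are shown because *Irf1*, *Irf8* and *Irf5* had the 3 lowest adjusted p-values of the members for AAV-PRDM16, and *Irf2* had the lowest for the knockout in the AAV cohort. Each window is 300 bases of RefSeq sequence of GRCm38.p6, from 250 bases before the start site to 50 after it, on the plus strand. That of *Irf1* lies at chr11:53769764-53770063, of *Irf8* at chr8:120736108-120736407, of *Irf5* at chr6:29526375-29526674 and of *Irf2* at chr8:46739495-46739794. Capitals mark 3 motifs searched on both strands: the core of the interferon-stimulated response element that IRFs bind, GAAANNGAA, the gamma-activated site of STAT dimers, TTCNNNGAA, and the core of the composite element of PU.1 with IRF4 or IRF8, GGAANNGAA.
Irf1: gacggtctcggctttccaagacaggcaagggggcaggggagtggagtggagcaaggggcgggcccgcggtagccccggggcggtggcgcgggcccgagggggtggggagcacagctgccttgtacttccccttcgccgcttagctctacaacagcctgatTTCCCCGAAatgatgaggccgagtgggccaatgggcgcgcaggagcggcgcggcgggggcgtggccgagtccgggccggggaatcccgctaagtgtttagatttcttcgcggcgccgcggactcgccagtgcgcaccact
Irf8: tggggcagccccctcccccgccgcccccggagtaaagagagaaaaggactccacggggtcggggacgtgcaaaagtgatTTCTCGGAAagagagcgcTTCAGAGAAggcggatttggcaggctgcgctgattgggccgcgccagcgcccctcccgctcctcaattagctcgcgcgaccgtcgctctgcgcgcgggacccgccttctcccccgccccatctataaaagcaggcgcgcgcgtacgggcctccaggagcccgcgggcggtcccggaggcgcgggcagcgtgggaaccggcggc
Irf5: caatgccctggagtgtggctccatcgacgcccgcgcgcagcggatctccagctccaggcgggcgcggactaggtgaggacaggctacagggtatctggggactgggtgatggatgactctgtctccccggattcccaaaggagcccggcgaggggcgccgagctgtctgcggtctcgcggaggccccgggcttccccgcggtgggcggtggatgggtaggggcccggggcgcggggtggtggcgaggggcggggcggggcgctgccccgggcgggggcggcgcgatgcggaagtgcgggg
Irf2: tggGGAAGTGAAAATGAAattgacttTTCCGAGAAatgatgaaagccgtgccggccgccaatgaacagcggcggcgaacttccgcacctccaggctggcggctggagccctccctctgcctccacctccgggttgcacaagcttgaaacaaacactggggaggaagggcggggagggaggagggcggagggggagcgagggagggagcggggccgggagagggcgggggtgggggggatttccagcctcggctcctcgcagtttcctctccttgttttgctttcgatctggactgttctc

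*Irf1* held 1 gamma-activated site, TTCCCCGAA, which began 90 bases before the start site. *Irf8* held a pair of them, TTCTCGGAA and TTCAGAGAA, which began 171 and 153 bases before it. *Irf2* held all 3 motifs close together at the far end of its window, GGAAGTGAA, GAAAATGAA and TTCCGAGAA, of which the first and the second overlap by 3 bases. No motif was found in the *Irf5* window or in those of *Irf3*, *Irf4*, *Irf7* and *Irf9*. The RefSeq start site used for *Irf9* is 414 bases from the GENCODE start, and its window, chr14:55603735-55604034, lies inside the gene. For *Irf7* the distance is 57 bases. Among 27025 promoter windows of the same length, 8.57% held the response element core, 8.47% the gamma-activated site and 8.25% the composite core. *Irf1*, *Irf8* and *Irf9* each have an alternative window in the same table, and none of those held a motif.

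In length-scaled units, CPM per kb of exon, *Irf3* and *Irf1* were the most abundant members in every AAV group. *Irf3*, which is made constitutively, averaged 7.02 ± 0.685 (SD, n = 3) in WT + AAV-GFP, 7.09 ± 0.426 in WT + AAV-PRDM16, 5.91 ± 1.72 in KO + AAV-GFP and 6.14 ± 1.01 in KO + AAV-PRDM16. *Irf1* averaged 6.75 ± 0.616, 3.83 ± 0.0795, 6.03 ± 0.821 and 4.54 ± 0.420 CPM per kb in the same order of groups. The ranges of *Irf3* and *Irf1* overlapped in both AAV-GFP groups and did not overlap in either AAV-PRDM16 group. *Irf2*, *Irf4*, *Irf7* and *Irf9* came next, with group means of 0.738 to 2.59 CPM per kb, and *Irf5* and *Irf8* were lowest, at 0.189 to 1.25 CPM per kb. *Irf5* and *Irf8* overlapped in 3 of the 4 AAV groups and were separate in KO + AAV-PRDM16.

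**Figure D1:**
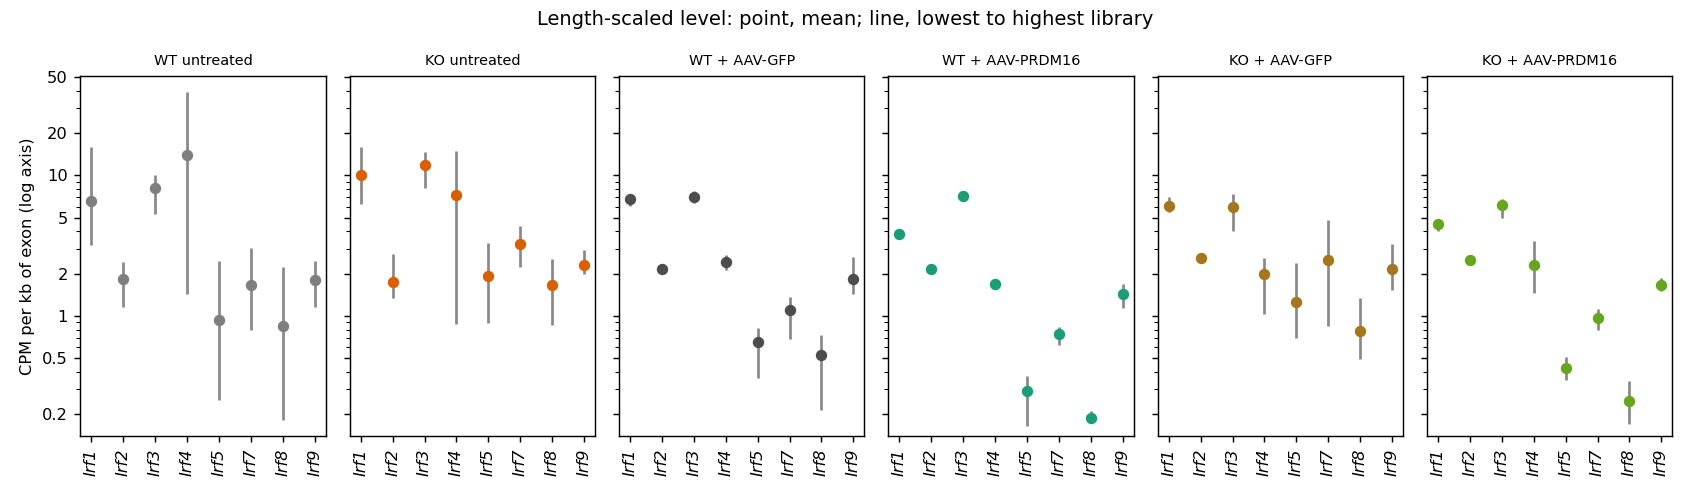
Mean level of the 8 members in CPM per kb of exon (vertical axis, log scale) in the 6 groups (panels), with lines from the lowest to the highest library. *Irf3* and *Irf1* lead in every AAV group, *Irf5* and *Irf8* are lowest in those groups, and *Irf4* has the longest line in both untreated groups.

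In the untreated groups *Irf3* and *Irf1* were again high, at 8.10 ± 1.86 and 6.58 ± 5.30 CPM per kb in WT and 11.9 ± 2.71 and 10.1 ± 4.15 CPM per kb in KO (SD, n = 5). *Irf4* stood beside them, at 13.99 ± 15.5 CPM per kb in WT and 7.20 ± 6.32 CPM per kb in KO, but with the widest spread of any member. In WT the neighbours *Irf1* and *Irf2* did not overlap, and every other pair of neighbours in the order overlapped; in KO all neighbours overlapped.

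*Irf1* fell with AAV-PRDM16. Its level was 28.58, 24.04 and 27.90 CPM in the WT + AAV-GFP libraries, while the WT + AAV-PRDM16 libraries had 15.49, 15.33 and 14.88 CPM. KO + AAV-GFP had 21.96, 22.19 and 27.73 CPM, and KO + AAV-PRDM16 had 19.20, 18.78 and 16.12 CPM. All 6 AAV-PRDM16 libraries thus lay below all 6 AAV-GFP libraries, and no library of either virus overlapped the other. Averaged over the genotypes, the log2 fold change was -0.61 (SE 0.083), with an adjusted p of 0.0453 in edgeR's quasi-likelihood test. An exact permutation test of the virus labels within genotype gave p = 0.005, the smallest it allows. *Irf1* was the only member called, against 0.037% of the 18899 genes tested, and 1 of 7 called genes, all lower with AAV-PRDM16. Complete separation of the 6 libraries from the other 6 was seen for 1 of 8 members and for 0.561% of all genes.

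The call of *Irf1* is close to the threshold. Leaving out 1 library kept the log2 fold change between -0.65 and -0.56, but the call held only without WT + AAV-GFP replicate 1 or KO + AAV-GFP replicate 1, and was lost without each of the other 10 libraries, with adjusted p up to 0.141. DESeq2 gave an adjusted p of 2.99e-08. The share of all genes that DESeq2 called is not given here, for this or for any later DESeq2 call. The 6 other called genes were the immunoglobulin genes *Igkv1-110*, *Ighv1-22* and *Ighv10-3*, the nuclease gene *Dnase1l3*, the interferon-inducible gene *Ifi208* and the lysozyme gene *Lyz1*, with log2 fold changes from -8.49 to -2.75, all larger in size than that of *Irf1*.

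**Figure D2:**
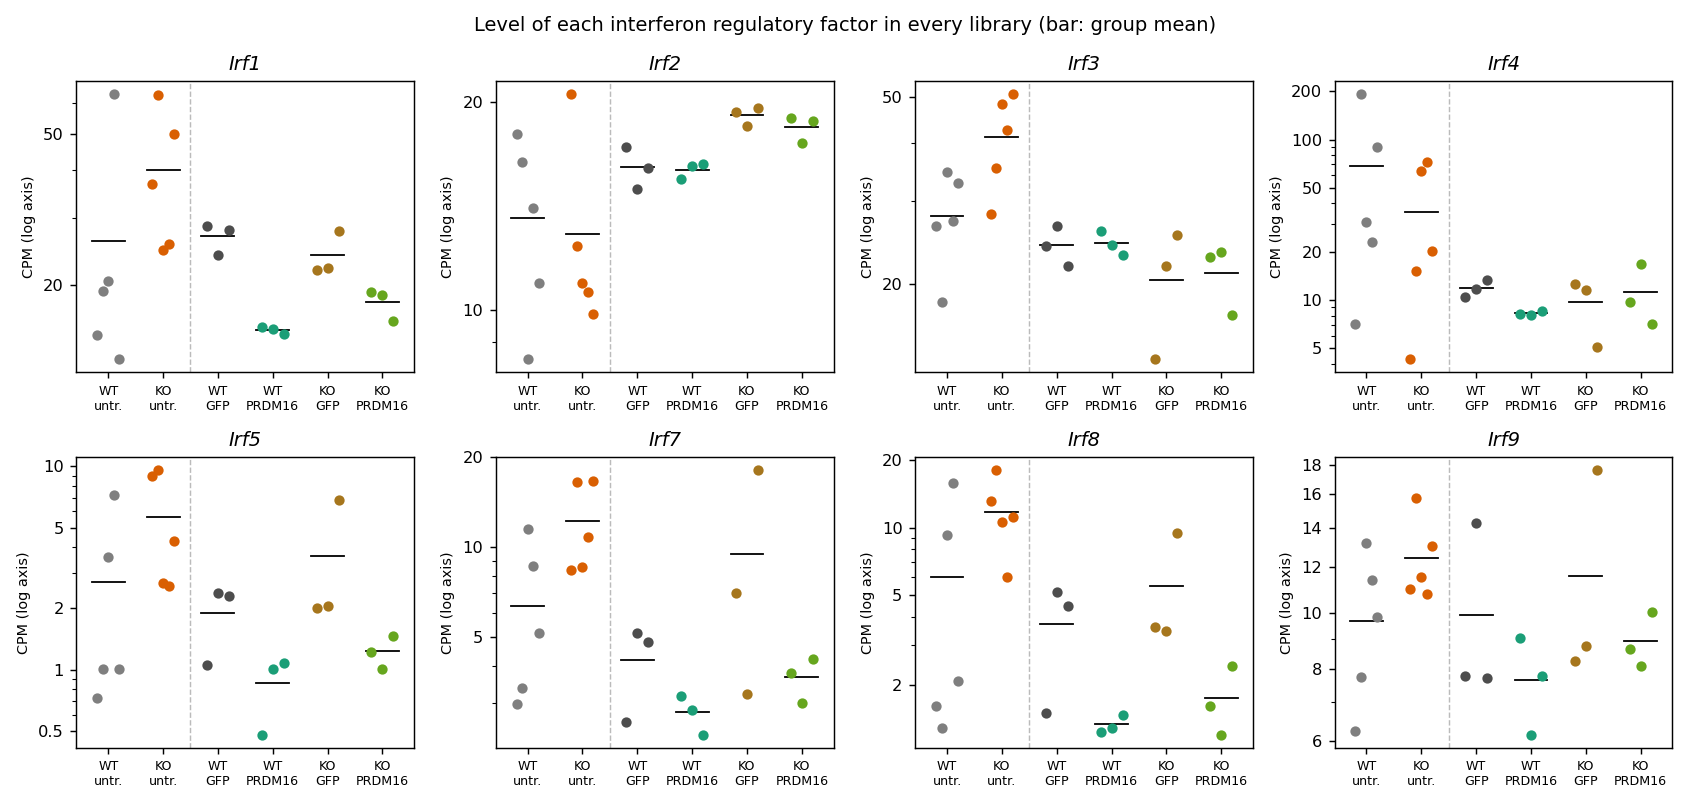
CPM (vertical axis, log scale) of each member in every library (points) of the 6 groups, with bars at the group means; the dashed line parts the cohorts. The *Irf1* points of both AAV-PRDM16 groups, 14.88 to 19.20 CPM, lie below those of both AAV-GFP groups, 21.96 to 28.58 CPM.

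Taken by genotype, the *Irf1* log2 fold change was -0.82 (SE 0.118) in WT and -0.41 (SE 0.118) in KO. Neither passed the edgeR threshold alone, with adjusted p of 0.286 and 0.359, and in a comparison of 3 against 3 the exact permutation test cannot go below p = 0.1, the value it gave for both. DESeq2 called *Irf1* in WT, with an adjusted p of 4.16e-06. The test of the difference between the genotypes gave an interaction of 0.41 (SE 0.166) with an adjusted p of 0.9998, so that the effect was not shown to differ between WT and KO. *Irf1* of the KO + AAV-PRDM16 libraries lay above that of all WT + AAV-PRDM16 libraries, with a log2 fold change of 0.24 and an adjusted p of 0.392.

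*Irf8*, *Irf5* and *Irf7* were lower on average with AAV-PRDM16 as well, by larger fold changes and with more spread. The WT + AAV-GFP libraries had *Irf8* at 1.51, 5.17 and 4.46 CPM, and WT + AAV-PRDM16 at 1.24, 1.28 and 1.47 CPM. The KO + AAV-GFP libraries had 3.62, 3.47 and 9.49 CPM, and KO + AAV-PRDM16 1.62, 1.20 and 2.42 CPM. The groups of each genotype did not overlap, though WT + AAV-GFP replicate 1 lay close to the AAV-PRDM16 libraries. Its averaged log2 fold change was -1.58 (SE 0.340; adjusted p = 0.0616), the exact permutation p was 0.005, and DESeq2 called it with an adjusted p of 0.000236.

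*Irf5* in WT mice was at 1.05, 2.39 and 2.29 CPM after AAV-GFP and at 0.480, 1.01 and 1.08 CPM after AAV-PRDM16. In KO mice it was at 2.01, 2.05 and 6.87 CPM after AAV-GFP and at 1.22, 1.01 and 1.47 CPM after AAV-PRDM16. The viruses overlapped in WT by a single library, replicate 1 of WT + AAV-GFP, and did not overlap in KO. The averaged log2 fold change was -1.36 (SE 0.357; adjusted p = 0.111), with an exact permutation p of 0.01 and a DESeq2 adjusted p of 0.00608.

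*Irf7* is raised by interferon and amplifies interferon production. In WT mice it was at 2.59, 5.17 and 4.80 CPM with AAV-GFP and 3.17, 2.84 and 2.35 CPM with AAV-PRDM16. In KO mice it was at 7.02, 3.21 and 18.12 CPM with AAV-GFP and 3.79, 2.99 and 4.23 CPM with AAV-PRDM16. The viruses overlapped in both genotypes. Its averaged log2 fold change was -0.98 (SE 0.338; adjusted p = 0.288; exact permutation p = 0.065) and was -0.54 without KO + AAV-GFP replicate 3. Together with *Irf1*, these genes made 4 of 8 members at an unadjusted p under 0.05, all lower, against 9.09% of all genes. The median log2 fold change was -0.49 over the members and -0.01 over all genes.

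By genotype, 0 of 8 members and 0% of all genes were called by edgeR for the virus in WT, and the same held in KO. At an unadjusted p under 0.05 there were 3 members in WT, *Irf1*, *Irf5* and *Irf8*, against 7.29% of all genes, and 4 in KO, the same 3 and *Irf7*, against 6.41%. The sides did not overlap for 3 members in WT, *Irf1*, *Irf4* and *Irf8*, against 14.2% of genes, and for 3 in KO, *Irf1*, *Irf5* and *Irf8*, against 9.43%. All of these were lower with AAV-PRDM16. DESeq2 called *Irf8* in KO, with an adjusted p of 0.0334. In the interaction 0 members and 0% of genes were called, with *Irf1* alone at an unadjusted p under 0.05 against 3.19% of genes, and DESeq2 called none of the members.

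*Irf2*, *Irf3*, *Irf4* and *Irf9* showed no call for the virus in edgeR or DESeq2. *Irf2* and *Irf3* had averaged log2 fold changes of -0.03 (95% interval -0.17 to 0.10) and 0.03 (-0.26 to 0.33). That of *Irf4* was -0.15 (-0.65 to 0.35) and that of *Irf9* was -0.37 (-0.84 to 0.10). *Irf4* was lower in each WT + AAV-PRDM16 library, at 8.15, 8.10 and 8.56 CPM, than in each WT + AAV-GFP library, at 10.38, 11.75 and 13.29 CPM. In KO it overlapped, at 12.57, 11.52 and 5.08 CPM with AAV-GFP and 9.77, 16.79 and 7.10 CPM with AAV-PRDM16. *Irf9* had 7.71 to 17.6 CPM in the AAV-GFP and 6.16 to 10.0 CPM in the AAV-PRDM16 libraries.

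**Figure D3:**
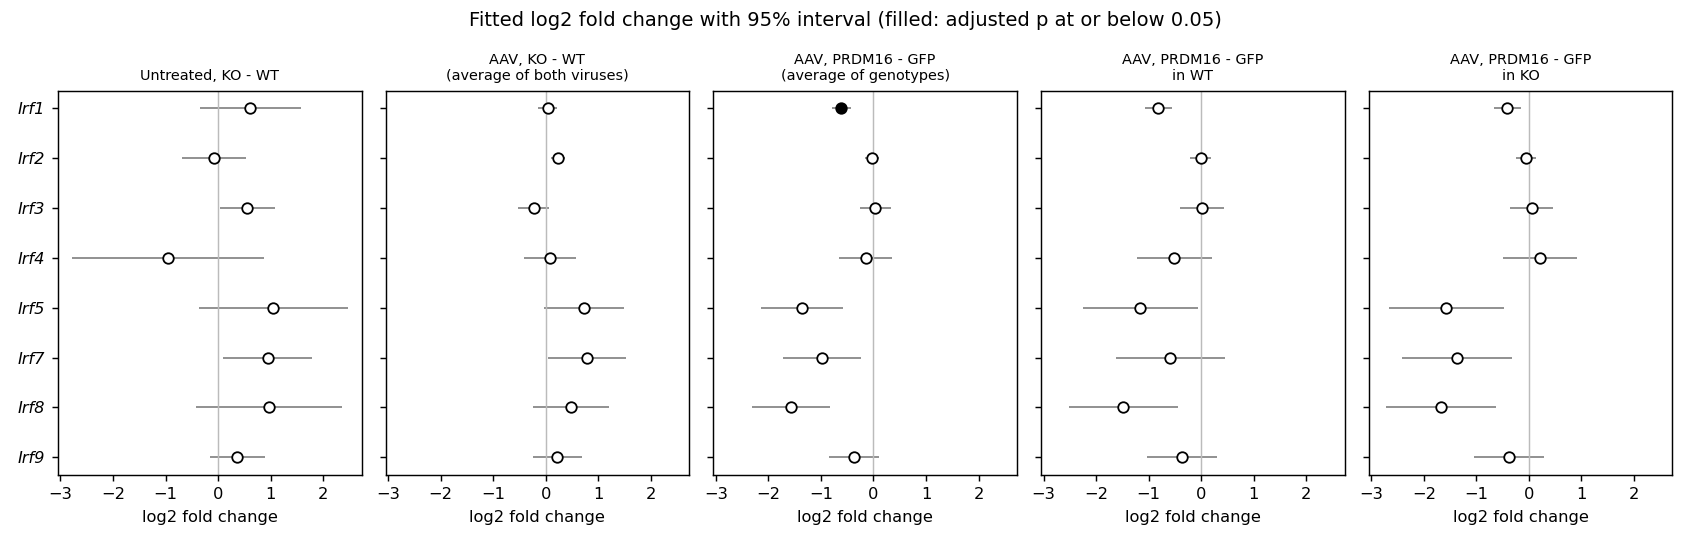
Fitted log2 fold change of each member with its 95% interval (horizontal axis) in 5 comparisons (panels); the filled point marks the member with an adjusted p at or below 0.05. *Irf1* is the filled point, at -0.61 for AAV-PRDM16 averaged over the genotypes, and *Irf5*, *Irf7* and *Irf8* lie further to the left with wider intervals.

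Markers of macrophages and T cells were lower on average with AAV-PRDM16 as well, with no marker called after adjustment. The 12 macrophage markers, among them *Lyz2*, *Csf1r*, *Adgre1* and the C1q genes, summed to 72.4, 146 and 147.2 CPM after AAV-GFP and 52.7, 64.8 and 60.8 CPM after AAV-PRDM16 in WT mice. In KO mice the sums were 182.7, 172.4 and 425.6 CPM after AAV-GFP and 116.9, 97.8 and 115.5 CPM after AAV-PRDM16. All 12 were lower on average with AAV-PRDM16, 10 of them at an unadjusted p under 0.05, against 9.09% of all genes, and 0 after adjustment, with a median log2 fold change of -1.15. T cell markers, with *Cd8a*, *Cd4* and the CD3 chains, summed to between 3.04 and 34.2 CPM in the AAV-GFP and between 1.65 and 3.63 CPM in the AAV-PRDM16 libraries, with 9 of 9 lower at an unadjusted p under 0.05, 0 after adjustment and a median of -3.00. B cell markers summed to 1.26 to 6.11 CPM with AAV-GFP and 0.887 to 1.66 CPM with AAV-PRDM16, with 6 of 7 lower, 2 of them at an unadjusted p under 0.05, and a median of -0.88. Dendritic cell markers summed to 18.9 to 40.7 CPM with AAV-GFP and 13.8 to 21.3 CPM with AAV-PRDM16, mostly from *Zbtb46*, and at most 1 of the 7 was at 0 in a library. All 7 were lower on average, 6 of them at an unadjusted p under 0.05, with a median of -2.004. Of plasmacytoid dendritic cell markers 5 of 5 were lower and 3 at that level, with a median of -1.35, and of plasma cell markers 5 of 5 and 3, with a median of -1.68. None of these passed adjustment. In WT mice the plasmacytoid markers summed to 84.6 to 88.0 CPM after AAV-GFP and 68.0 to 79.8 CPM after AAV-PRDM16. In KO mice the viruses overlapped in this sum, at 76.7 to 133.7 CPM and 77.2 to 126 CPM. In whole tissue, fewer cells of a type and less RNA per cell cannot be told apart, and the part of these cells in the results of the members was not tested.

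WT + AAV-GFP replicate 1 had a macrophage sum of 72.4 CPM and a T cell sum of 3.04 CPM, near the 52.7 to 64.8 CPM and 1.65 to 2.35 CPM of the WT + AAV-PRDM16 libraries. Its *Irf5*, *Irf7* and *Irf8* levels, 1.05, 2.59 and 1.51 CPM, were the lowest of the AAV-GFP libraries. Its *Irf1* level, 28.58 CPM, was the highest of all 12. KO + AAV-GFP replicate 3 was at the other end, with the highest macrophage and T cell sums, 425.6 and 34.2 CPM, and the highest *Irf5*, *Irf7*, *Irf8* and *Irf9*. Without it the averaged log2 fold change was -0.56 for *Irf1*, -1.26 for *Irf8* and -0.94 for *Irf5*.

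**Figure D4:**
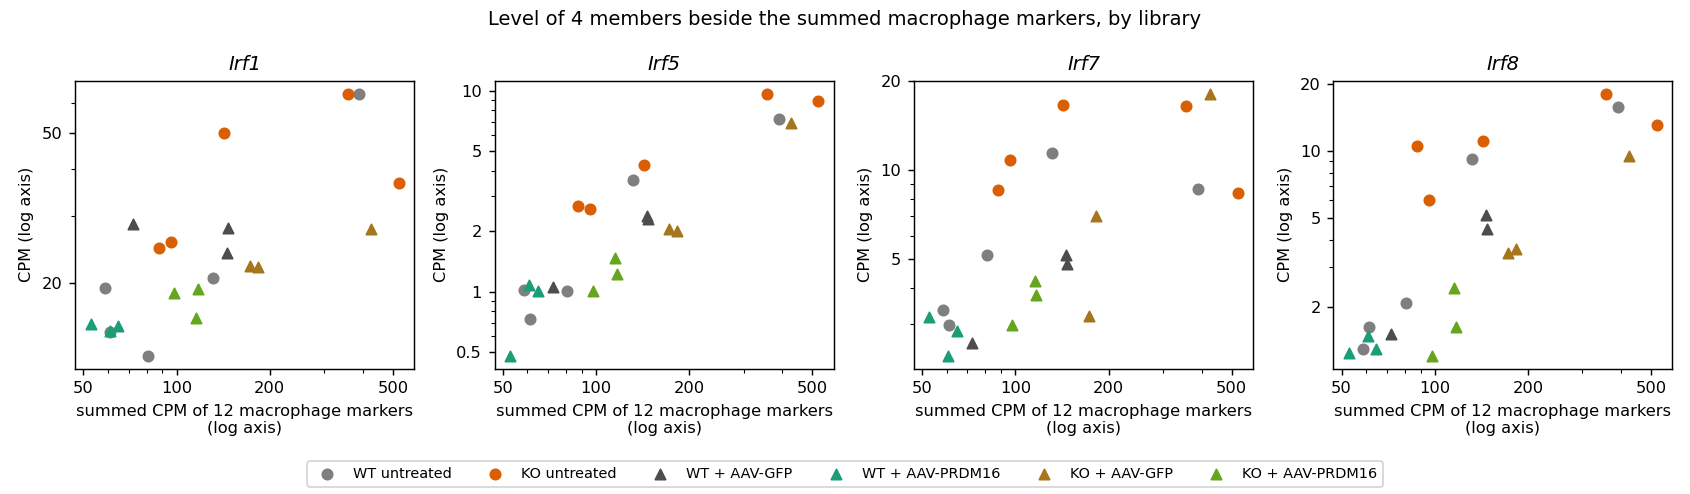
CPM of *Irf1*, *Irf5*, *Irf7* and *Irf8* (vertical axes, log scale) against the summed CPM of 12 macrophage markers (horizontal axis, log scale) in each of the 22 libraries; circles are untreated and triangles AAV libraries. The 3 untreated libraries with marker sums of 357 CPM or more have the 3 highest *Irf5* levels, while the WT + AAV-GFP library with a sum of 72.4 CPM is the highest AAV library in the *Irf1* panel.

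Of the lists of genes that act before or after the IRFs, no gene was called for the averaged virus effect in edgeR. Over all genes, 9.09% were at an unadjusted p under 0.05 for this effect. Of 19 interferon genes, the ligands, only *Ifng* was tested, and the sum of all 19 was at most 0.400 CPM in any library. *Ifng* was lower with AAV-PRDM16 at an unadjusted p under 0.05 and not after adjustment (adjusted p = 0.275), and no fold is given at these levels. The 6 receptor chains, led by *Ifnar2*, *Ifngr1* and *Ifnar1*, had a median log2 fold change of -0.07 with AAV-PRDM16, and 0 at an unadjusted p under 0.05. Of the 6 kinases and STAT factors behind the receptors, 3 were lower at an unadjusted p under 0.05, and *Jak1*, the most abundant of them, had -0.02 (SE 0.065; adjusted p = 0.986). Of 15 nucleic acid sensors and adaptors, which act before IRF3, IRF5 and IRF7, 7 were lower at that level and 0 higher, with a median of -0.32. *Unc93b1*, which carries endosomal Toll-like receptors, had -0.65 (SE 0.181; adjusted p = 0.140), and *Mavs* had -0.07. The 8 kinases and adaptors that phosphorylate these IRFs, led by *Irak1*, had a median of -0.02, with 2 lower at that level.

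The 18 genes known to be induced through IRF1, which include *B2m*, *Tap1* and *Psmb8* of antigen presentation, were all lower on average with AAV-PRDM16. At an unadjusted p under 0.05, 15 of 18 were lower and 0 higher, against 9.09% of all genes. After adjustment 0 passed, and the median log2 fold change of the 18 was -0.95, beside -0.01 over all genes. *B2m*, the shared chain of MHC class I, had -0.54 (SE 0.190; adjusted p = 0.300), *Gbp2*, an interferon-induced GTPase, -1.43 (SE 0.279; adjusted p = 0.0543), and *Cd274*, the ligand PD-L1, -0.08 (SE 0.112; adjusted p = 0.950). Their summed level in WT was 363.3, 614.3 and 619 CPM with AAV-GFP and 323.7, 318.5 and 387.7 CPM with AAV-PRDM16. In KO it was 581.6, 468.5 and 934.3 CPM with AAV-GFP and 383.9, 386.9 and 545 CPM with AAV-PRDM16. WT + AAV-GFP replicate 1, highest in *Irf1*, was lowest of the AAV-GFP libraries in this sum.

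For the same effect, 9.09% of all genes were at an unadjusted p under 0.05. Of 20 genes known to be induced through IRF9 in ISGF3, 7 were lower at that level and 0 higher, with a median of -0.54. Among the most abundant of them, *Eif2ak2*, *Parp14* and *Rsad2* had -0.14, -0.43 and -0.11, with adjusted p from 0.260 to 0.962. The DNA-binding partners of IRF4 and IRF8 had a median of -1.91 over 5 genes, and *Spi1*, which encodes PU.1, had -1.42 (SE 0.296; adjusted p = 0.0586). The 5 negative regulators, *Socs1*, *Socs3*, *Usp18*, *Trim21* and *Trim30a*, had a median of -0.65, with 4 lower at an unadjusted p under 0.05; *Socs1* and *Usp18* also stand in the IRF1 and IRF9 lists. IRF2-binding proteins, corepressors led by *Irf2bp2*, had a median of 0.10 over 3 genes. The fat genes with which IRF4 works, *Ucp1*, *Pnpla2*, *Lipe*, *Cidea*, *Ppargc1a* and *Prdm16* itself, had a median of 0.11. Among them *Ucp1* had 0.31 (SE 0.217, adjusted p = 0.811). Only *Prdm16* was higher at an unadjusted p under 0.05. Its counts include the viral transcripts, so its rise was set by the design and says nothing about the list.

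For the knockout in the AAV cohort, *Irf2* was the member with complete separation. In WT mice its level was 17.22, 14.97 and 16.03 CPM with AAV-GFP and 15.48, 16.15 and 16.25 CPM with AAV-PRDM16. In KO mice it was 19.32, 18.46 and 19.57 CPM with AAV-GFP and 18.92, 17.45 and 18.79 CPM with AAV-PRDM16. All 6 KO libraries lay above all 6 WT libraries, a separation seen for 1 of 8 members and 2.71% of genes. The difference was small, with a log2 fold change of 0.23 (SE 0.063), an adjusted p of 0.0805 and an exact permutation p of 0.005, the smallest possible. DESeq2 called it with an adjusted p of 0.00925. edgeR called 0 of 8 members for the averaged genotype effect, where 2.18% of all genes were called. At an unadjusted p under 0.05 there were *Irf2* and *Irf7*, both higher in KO, against 18.3% of genes. The median log2 fold change was 0.22 over the members and 0.01 over all genes.

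Within each virus the *Irf2* log2 fold change of KO against WT was 0.25 with AAV-GFP (SE 0.089; adjusted p = 0.421) and 0.20 with AAV-PRDM16 (SE 0.089; adjusted p = 0.337). With AAV-GFP, 0 members were called, against 0.0529% of genes, *Irf2* and *Irf7* were at an unadjusted p under 0.05, against 9.18%, and *Irf2* alone did not overlap, against 13.4%. With AAV-PRDM16, 0 members were called, against 0.0476%, *Irf2* alone was at an unadjusted p under 0.05, against 13.7%, and *Irf1* and *Irf2* did not overlap, against 22.8%. DESeq2 called none of the members in either. *Irf7* had log2 fold changes of 1.18 with AAV-GFP and 0.39 with AAV-PRDM16, and the first was 0.28 without KO + AAV-GFP replicate 3. With AAV-GFP, *Irf5* went from 0.93 to 0.08, *Irf8* from 0.58 to -0.07 and *Irf9* from 0.22 to -0.22 when that library was left out.

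Macrophage markers were higher in KO in the AAV cohort, where 12 of 12 had positive averaged log2 fold changes and *Cd163*, *Mrc1*, *Csf1r* and *C1qb* passed the edgeR threshold, with adjusted p from 0.0095 to 0.0498. *Tlr3*, *Tlr7* and *Tlr8*, receptors for RNA that act before the IRFs, were higher as well, with log2 fold changes of 0.49, 1.24 and 1.72 and adjusted p of 0.0216, 0.0424 and 0.0285. They were the 3 called of 15 sensors and adaptors, of which 10 were higher and 5 lower on average. Among the lower ones, the adaptor gene *Myd88* had -0.28 (SE 0.105, adjusted p = 0.172). Over all genes, 2.18% were called for this effect. *Ifngr1*, a chain of the interferon gamma receptor, was higher by 0.66 (SE 0.108; adjusted p = 0.0145), and *Oasl2*, an IRF9-dependent gene, by 0.94 (SE 0.216; adjusted p = 0.0475). *Cidea*, a lipid droplet protein gene of brown fat, was lower, with -0.39 (SE 0.0847; adjusted p = 0.0378). It was the 1 called of the 6 fat genes with which IRF4 works, and all 6 were lower on average. Of the 10 brown fat markers, which include *Cidea*, 9 were lower on average and 2 were called. The averaged log2 fold changes of the 12 macrophage markers had a median of 0.98, and those of the 20 IRF9-dependent genes were all positive with a median of 0.63. Beside these, *Irf8* had 0.48 (95% interval -0.25 to 1.20) and *Irf5* 0.73 (-0.04 to 1.50), and *Irf1* had 0.04 (-0.14 to 0.22). Without KO + AAV-GFP replicate 3 the values were 0.15 for *Irf8* and 0.30 for *Irf5*, and that of *Irf7* went from 0.78 to 0.33.

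In the untreated cohort edgeR called 0 of 8 members and 0% of 17869 genes, and DESeq2 called none of the members. At an unadjusted p under 0.05 there were 2 members, *Irf3* and *Irf7*, both higher in KO, against 15.9% of genes, and no member was free of overlap, against 1.4%. *Irf3* had 26.52, 18.31, 34.64, 27.18 and 32.78 CPM in WT and 28.18, 35.32, 48.35, 42.53 and 50.70 CPM in KO, a log2 fold change of 0.56 (SE 0.240; adjusted p = 0.308; exact permutation p = 0.0317). *Irf7* had 2.99, 3.37, 11.45, 8.62 and 5.17 CPM in WT and 8.35, 16.53, 8.54, 10.84 and 16.60 CPM in KO, a log2 fold change of 0.95 (SE 0.391; adjusted p = 0.305; exact permutation p = 0.0714). The *Irf3* levels of 4 KO libraries lay above all WT libraries, and *Irf7* overlapped in the range from 8.35 to 11.45 CPM.

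*Irf1* in untreated mice was 14.81, 19.31, 20.53, 63.43 and 12.79 CPM in WT and 36.81, 63.28, 24.72, 25.69 and 49.99 CPM in KO. All KO libraries lay above 4 of the WT libraries, and WT replicate 4 was above all KO libraries. The log2 fold change was 0.62 (SE 0.446; adjusted p = 0.453; exact permutation p = 0.143), and without WT replicate 4 it was 1.25 and still not called. *Irf8* had 1.61, 1.29, 9.22, 15.82 and 2.08 CPM in WT and 13.08, 18.04, 10.58, 6.06 and 11.10 CPM in KO, and *Irf5* 0.727, 1.01, 3.58, 7.20 and 1.01 CPM in WT and 8.92, 9.60, 2.67, 2.58 and 4.28 CPM in KO. WT replicate 4 was the highest WT library for all 3 genes and for the macrophage sum, at 390 CPM against 58.5 to 131.6 CPM in the other WT libraries, and KO replicates 1 and 2 had 522.7 and 357 CPM against 87.6 to 142.7 CPM in the other KO libraries. *Irf8* and *Irf5* had log2 fold changes of 0.97 (SE 0.641; adjusted p = 0.415) and 1.05 (SE 0.653; adjusted p = 0.394), which were 1.74 and 1.83 without WT replicate 4, each with an adjusted p of 0.259.

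*Irf4* varied more between untreated mice than any other member, 44.6-fold from the lowest to the highest library, against 3.31-fold in the AAV cohort. It had 7.05, 191.8, 30.82, 22.88 and 90.47 CPM in WT and 4.30, 15.15, 64.15, 72.89 and 20.11 CPM in KO. The highest and the second-highest level were both in WT, the lowest was in KO, and the genotypes overlapped through most of the range. The log2 fold change was -0.96 (SE 0.844; adjusted p = 0.531), and it was -0.10 without WT replicate 2. Per the study, untreated mice of both genotypes were without food for some hours before collection. Whether this bears on the *Irf4* levels was not tested. *Irf2* had 8.50 to 18.0 CPM in WT and 9.88 to 20.5 CPM in KO, and *Irf9* 6.24 to 13.2 CPM and 10.8 to 15.8 CPM, with log2 fold changes of -0.08 and 0.36.

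With no gene called in the untreated cohort, no call could be lost, and no member gained one without KO replicate 1 or with a covariate for Y-linked transcripts. Of the 6 libraries low in Y-linked transcripts, 2 were WT and 4 were KO, so apparent sex was unbalanced between the genotypes. Effects of genotype and sex were thus only partly told apart, and these 6 libraries were not left out together. Without KO replicate 1 the log2 fold changes were 0.64 for *Irf1*, 0.67 for *Irf3* and 1.06 for *Irf7*, with adjusted p of 0.445, 0.163 and 0.182. With a covariate for Y-linked transcripts they were 1.01, 0.41 and 0.91, each with an adjusted p of 0.576. Skeletal muscle markers varied widely within both genotypes, with a median log2 fold change of 2.07 over 10 genes, 0 of them at an unadjusted p under 0.05, and their sum reached 3218 CPM in WT replicate 3 and 5733 and 6549 CPM in KO replicates 1 and 2. Their part in the members' values was not tested. Of the pathway lists, the 17 tested of the 18 IRF1-induced genes had a median of 0.52 in untreated KO, with 2 higher and 2 lower at an unadjusted p under 0.05. The 20 IRF9-dependent genes had a median of -0.01, with 0 higher and 1 lower. At that level stood 15.9% of all genes. Over all genes the median was 0.04, and over the members 0.59.

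Some members varied together in both cohorts, and the correlations of others differed between the cohorts. Across the 12 AAV libraries *Irf5* and *Irf8* had a Pearson r of 0.940 in log2 CPM, and across the 10 untreated libraries r was 0.948. *Irf7* and *Irf8* had 0.854 and 0.872, and *Irf7* and *Irf9* had 0.772 and 0.947, in the same order. *Irf1* and *Irf5* had 0.662 and 0.883. *Irf1* had 0.514 and 0.718 with *Irf7*, 0.673 and 0.83 with *Irf8*, and 0.403 and 0.677 with *Irf9*. *Irf3* and *Irf7* had -0.146 and 0.717, and *Irf2* and *Irf7* had 0.464 and -0.576, so the sign differed between the cohorts. *Irf2* and *Irf3* ran against each other in both cohorts, at -0.558 and -0.698. *Irf4* had no r above 0.177 with any member. These are descriptions over libraries that share tissue makeup and genotype.

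**Figure D5:**
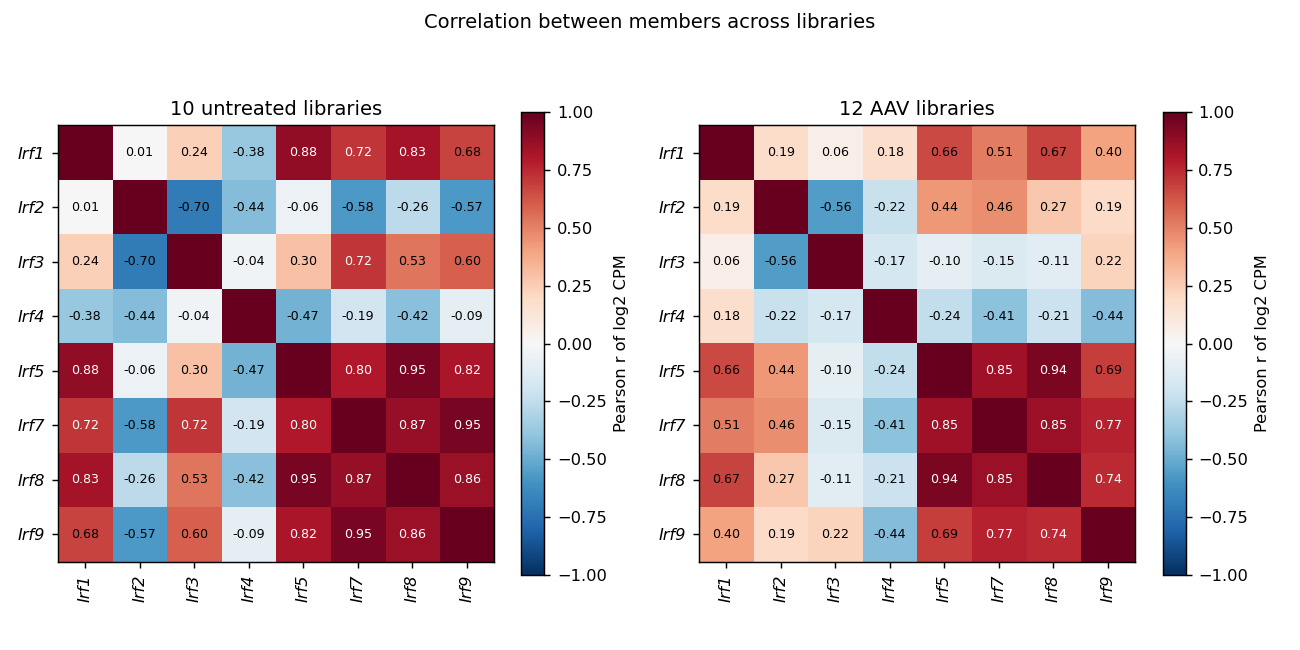
Pearson r of log2 CPM between members across the 10 untreated libraries (left) and the 12 AAV libraries (right), as numbers and colours from -1 to 1. *Irf5*, *Irf7*, *Irf8* and *Irf9* form a block of positive values in both, from 0.689 to 0.948, and *Irf4* stands apart.

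The genes most like each member, by the smaller of r over the 10 untreated and r over the 12 AAV libraries, were as follows. *Irf8* was closest to *H2-Eb1* (0.977 and 0.984) and *H2-Aa* (0.976 and 0.977), which encode MHC class II chains, and *Irf7* to *H2-Eb1* (0.897 and 0.895) and *Sh3bgrl3* (0.902 and 0.884). *Irf5* was closest to *Cotl1* (0.989 and 0.976), an actin-binding protein gene, and *C1qa* (0.961 and 0.962), a complement gene of macrophages. *Irf9* had *Bst2* (0.961 and 0.900), which encodes the antiviral protein tetherin, and *Relt* (0.877 and 0.852). *Irf1* had *Napsa* (0.821 and 0.831) and *Fermt3* (0.906 and 0.819), the latter an integrin activator of blood cells.

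*Irf2* was closest to *Lamc1* (0.918 and 0.896), a laminin chain gene, and *Tlr4* (0.863 and 0.924), the receptor for lipopolysaccharide. *Irf3* was closest to *Ggnbp1* (0.898 and 0.939) and *Tarbp2* (0.928 and 0.895), a partner of Dicer. *Irf4* had the loosest companions, *Ap4m1* (0.785 and 0.803) and *Gzmm* (0.795 and 0.735).

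Several members overlap other genes in the annotation, and the strand setting of the counting is not given in the sources used here. *Irf3* shares 1065 bases with *Bcl2l12*, *Irf5* 1045 bases with *Tnpo3* and *Irf1* 907 bases with *Gm17334*, each on the opposite strand, and *Irf9* shares 123 bases with *Rnf31* on its own strand. *Irf7* shares 45 bases with *Phrf1*, and the 3 antisense models within *Irf2* are listed at 0 in every library. *Tnpo3*, at 52.8 to 66.1 CPM in the AAV cohort, was more abundant than *Irf5*, so reads in the shared stretch are uncertain for *Irf5*. *Gm17334* was at most 0.951 CPM in any library. For the averaged virus effect *Tnpo3* had a log2 fold change of 0.0048 and *Bcl2l12* of 0.11, both uncalled. *Irf8* lies wholly within *Gm20388*, which is listed at 0 in every library.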

How the data were processed

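BAT mRNA of 22 mice was sequenced on an Illumina instrument after library preparation with the SureSelect XT HS2 kit. The submitters' processing notes name bcl2fastq 2.20, Trimmomatic 0.36, HISAT2 and GRCm38.p6; the counting tool, its annotation, strand setting and handling of duplicates are not given in the sources used here. The authors deposited whole-number read counts per Ensembl gene, without normalization, in 1 table per cohort. Symbols, exon lengths and positions came from GENCODE M21. Genes were filtered by filterByExpr, scaled by TMM and tested by the quasi-likelihood test of edgeR 4.0.16 in R 4.3.3, two-sided, with Benjamini-Hochberg adjustment over 17869 genes (untreated) or 18899 genes (AAV, 12 libraries in 1 fit), at a threshold of 0.05. The SE is the size of the log2 fold change divided by the square root of F. Permutation tests used log2 CPM with a prior count of 2. The labels do not say whether replicates are litter mates, and p-values set differences between group means against the spread between these mice. The fits were tested on simulated data.

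The other settings tried were no filter, RLE scaling, DESeq2 1.42.0, each library left out, the replicate number as a block, and only the compared groups. For untreated mice, WT replicates 1 and 2 or KO replicate 1 were also excluded, or a covariate was added for Y-linked transcripts above 10 CPM. The members, gene lists and tests were chosen with earlier results of these data known. The text names the 8 members, the 2 genes most like each, list genes with the highest mean CPM or a call, and checks; a few further list members are named as examples of what a list holds. The 6 genes called beside *Irf1* were named after their values were seen.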

Additional observations from a re-analysis of the deposited data

Results flagged for a closer look

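*Irf1* and *Irf2* each had 1 value that stood apart from its group of 5 untreated libraries by Dixon's criterion, among 16 groups checked, where chance flags about 1 group in 20. *Irf1* in WT replicate 4 was 63.43 CPM, against 12.79 to 20.53 CPM in the other WT libraries, and the same library had the highest WT levels of *Irf5* and *Irf8* and a macrophage marker sum of 390 CPM. That library also had *Xist* at 14 CPM beside Y-linked transcripts at 116 CPM. *Irf2* in KO replicate 1 was 20.51 CPM, against 9.88 to 12.39 CPM in the other KO libraries; this library also had *Cpeb2* at the WT level, 11.7 CPM, and the highest macrophage sum, 522.7 CPM. The part of tissue makeup in either value was not tested.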

How the results depend on the processing

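DESeq2 called 1 member for the virus in WT, 1 in KO, 3 averaged over the genotypes and 1 for the averaged genotype effect, where edgeR called 0, 0, 1 and 0. Without the share of all genes that DESeq2 called, these counts cannot be read as particular to the members. RLE scaling and no filter on low counts left the count of members called at that of edgeR with TMM in each of the 8 comparisons. With the replicate block, 0 members were called for the averaged virus effect, and *Irf1* had -0.61 with an adjusted p of 0.0652; no other count of members changed with it. The labels do not say whether replicate numbers pair the samples. Deviations of same-numbered libraries correlated at -0.091 to 0.154 over 18 AAV pairs, of which 2 were over 0.1. Over 5 untreated pairs they correlated at -0.292 to 0.111, of which 1 was over 0.1. Pairs with different numbers had -0.232 to 0.211 in the AAV cohort and -0.357 to 0.293 in the untreated cohort. Such correlations cannot exclude a pairing, since paired mice need not correlate. Leaving out 1 library left 0 to 2 members called for the averaged virus effect.

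Among 64 log2 fold changes of members, 1064 alternative values gave 1001 with the same direction and side of the threshold, 45 with the other sign, 11 weaker and 7 stronger. *Irf2* in untreated mice was 0.26 without WT replicates 1 and 2 and 0.14 with the Y-linked covariate, and the *Irf9* interaction was 0.003 without the filter, 0.033 with the replicate block and 6e-04 in DESeq2. Leaving out 1 library gave -0.31 to 0.043 for *Irf2* in untreated mice. For KO against WT with AAV-GFP the ranges were -0.51 to 0.0245 for *Irf4*, -0.071 to 0.89 for *Irf8* and -0.22 to 0.58 for *Irf9*. For the virus in WT they were -0.06 to 0.041 for *Irf2* and -0.055 to 0.086 for *Irf3*, and in KO -0.15 to 0.24 for *Irf3*, -0.20 to 0.46 for *Irf4* and -0.56 to 0.064 for *Irf9*. For the averaged virus effect *Irf3* ranged from -0.067 to 0.13, and for the averaged genotype effect *Irf1* from -0.023 to 0.0775, *Irf4* from -0.13 to 0.23 and *Irf9* from -0.0041 to 0.40. Interactions ranged from -0.10 to 0.0044 for *Irf2*, -0.18 to 0.23 for *Irf3*, -0.70 to 0.43 for *Irf5*, -1.19 to 0.11 for *Irf7*, -0.51 to 0.45 for *Irf8* and -0.36 to 0.44 for *Irf9*. The cause of these changes was not tested. The lowest count of a member in a library was 41 reads, and each AAV group held 3 mice.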
